A study of Homo sapiens with 30 samples.

Results

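The plasminogen activators PLAU and PLAT, the activator receptor PLAUR, the matrix metalloproteinases MMP1, MMP9, MMP10 and MMP14 and their inhibitors TIMP1 and TIMP2 were followed through the expression and peak files by gene symbol. All 9 were found among 26251 symbols of the expression table, and ERG, ERK2 and ATAC peaks within 20 kb of each gene were added. The study used RWPE1, an immortalised line of normal prostate epithelium, to ask how the AKT and ERK pathways act with ERG, the ETS factor that prostate tumours express after fusion to TMPRSS2. RNA-seq covered 4 lines of 3 libraries each. RWPE1-Vector carried the empty retroviruses pQCXIH and pBabe-puro, RWPE1-ERG carried pQCXIH-ERG (UniProt isoform 1) with empty pBabe-puro, RWPE1+mAKT carried empty pQCXIH with myristoylated AKT in pBabe-puro, and RWPE1-ERG/mAKT (labelled RWPE1-ERG+mAKT) carried both inserts. The labels name pQCXIH for each sample but pLHCX as the ERG backbone in the protocol. All lines grew in keratinocyte medium with EGF and pituitary extract under hygromycin and puromycin, so each of them received a growth factor throughout. Selected populations were used, and none of the sources names a clone. ERG ChIP-seq came from ERG/mAKT cells and from VCaP, a prostate cancer line that carries the fusion, treated with DMSO. ERK2 ChIP-seq came from vector and ERG cells, ATAC-seq from ERG, mAKT and ERG/mAKT cells, and H3K27me3 ChIP-seq from vector cells, ERG cells and cells with ERG S96E, in which a phosphorylated serine is replaced by glutamate. Each peak list rests on 1 library.

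Plasminogen activators are serine proteases that cut plasminogen to plasmin, a broad protease that degrades fibrin and activates other proteases. PLAUR holds the urokinase activator PLAU at the cell surface. Matrix metalloproteinases cut collagens and other matrix proteins, MMP14 does so from the membrane, and TIMPs block their active sites. In epithelia these genes are classical targets of ETS and AP-1 factors downstream of growth factor signalling, and the system is known for its part in migration and invasion.

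Reference sequences are shown for 9 of the ERG, ERK2 and ATAC peaks near these genes, because the peak comparisons below turn on them. Sequences are from GRCh37 (the hg19 build of the files), 5′ to 3′ along the strand of the named gene. Capitals mark GGAA, the ETS core, the ETS words AGGAAGTG, CGGAAGTG and GGAAGTGA, and the AP-1 words TGACTCA and TGAGTCA, all on both strands, so that a core on the other strand reads TTCC. The ERG peak of ERG/mAKT cells in an MMP14 intron was at chr14:23308490-23308668 on the plus strand, and the nearby ERK2 peak of ERG cells was at chr14:23307953-23308193.
MMP14 intron, ERG peak: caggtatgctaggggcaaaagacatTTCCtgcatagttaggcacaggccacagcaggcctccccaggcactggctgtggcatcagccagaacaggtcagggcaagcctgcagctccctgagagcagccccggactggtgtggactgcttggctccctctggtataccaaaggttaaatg
MMP14 intron, ERK2 peak: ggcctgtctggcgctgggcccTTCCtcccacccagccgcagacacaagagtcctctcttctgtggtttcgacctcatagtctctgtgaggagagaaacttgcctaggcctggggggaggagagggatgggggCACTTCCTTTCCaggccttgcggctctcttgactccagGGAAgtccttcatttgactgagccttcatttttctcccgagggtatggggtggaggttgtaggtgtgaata
The first held 1 core near its 5′ end, and the second held 4 cores, of which 1 lay in the word AGGAAGTG.

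Upstream of PLAU, the ERG peak of ERG/mAKT cells was at chr10:75648762-75649042, in no annotated gene and nearer to CAMK2G (14.4 kb) than to PLAU (19.9 kb). The ERK2 peak of ERG cells was at chr10:75666894-75667086, 1.85 kb from the gene's first annotated base. Both are on the plus strand.
PLAU distal, ERG peak: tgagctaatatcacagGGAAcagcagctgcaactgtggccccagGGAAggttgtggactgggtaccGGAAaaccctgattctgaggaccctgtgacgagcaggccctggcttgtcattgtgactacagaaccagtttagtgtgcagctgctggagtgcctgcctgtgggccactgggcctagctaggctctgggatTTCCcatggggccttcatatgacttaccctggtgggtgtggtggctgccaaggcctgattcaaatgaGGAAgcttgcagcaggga
PLAU proximal, ERK2 peak: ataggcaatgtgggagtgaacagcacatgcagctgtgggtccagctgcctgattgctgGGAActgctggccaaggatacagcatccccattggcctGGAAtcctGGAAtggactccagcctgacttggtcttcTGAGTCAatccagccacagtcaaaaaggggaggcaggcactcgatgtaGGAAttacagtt
The distal sequence held 5 cores. The proximal one held 4 cores and 1 AP-1 word, with 25 bases between the nearest core and that word.

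For TIMP2, on the minus strand, the ERG peak upstream of the gene was at chr17:76929686-76929794 and the ERK2 peak of ERG cells in an intron was at chr17:76919979-76920163.
TIMP2 upstream, ERG peak: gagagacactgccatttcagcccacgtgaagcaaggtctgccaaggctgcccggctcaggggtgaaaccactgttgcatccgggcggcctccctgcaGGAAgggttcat
TIMP2 intron, ERK2 peak: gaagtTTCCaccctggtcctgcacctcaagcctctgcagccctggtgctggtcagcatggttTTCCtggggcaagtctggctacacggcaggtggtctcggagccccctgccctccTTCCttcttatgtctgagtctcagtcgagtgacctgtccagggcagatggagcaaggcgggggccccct
The upstream peak held 1 core and the intronic peak 3 cores.

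MMP10 and MMP1 lie next to each other on the minus strand of chromosome 11. The ERG peak upstream of MMP10, at chr11:102654298-102654444, lay in an exon of WTAPP1, a transcribed pseudogene on the other strand that overlaps both genes. The stretch at chr11:102651360-102651554 is the part before the MMP10 start of an ATAC peak that was called in ERG/mAKT cells alone. The ERK2 peak of vector cells upstream of MMP9, on the plus strand at chr20:44622082-44622314, is shown because it lay in the open region of highest fold enrichment near any of the 9 genes.
MMP10 upstream, ERG peak: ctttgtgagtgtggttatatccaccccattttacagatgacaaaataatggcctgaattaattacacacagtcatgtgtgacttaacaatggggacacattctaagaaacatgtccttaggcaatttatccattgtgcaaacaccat
MMP10 start, ATAC peak: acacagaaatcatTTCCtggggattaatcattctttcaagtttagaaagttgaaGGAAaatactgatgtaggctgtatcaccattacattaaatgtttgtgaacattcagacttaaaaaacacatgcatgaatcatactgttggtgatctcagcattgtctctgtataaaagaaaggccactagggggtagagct
MMP9 upstream, ERK2 peak: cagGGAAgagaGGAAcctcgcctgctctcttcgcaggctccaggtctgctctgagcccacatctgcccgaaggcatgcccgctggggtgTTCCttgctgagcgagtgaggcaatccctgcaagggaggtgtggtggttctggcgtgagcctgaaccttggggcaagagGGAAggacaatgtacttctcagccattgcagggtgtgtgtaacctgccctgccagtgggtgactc
The ERG peak upstream of MMP10 held none of the words, the MMP10 start held 2 cores and the MMP9 site held 4 cores.

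Of the 9 genes, 6 were expressed at 1 FPKM or more in every line (PLAU, PLAT, PLAUR, MMP14, TIMP1 and TIMP2), and MMP1, MMP9 and MMP10 were below 1 FPKM in every line. FPKM counts fragments per kilobase of transcript, scaled to the mapped fragments of a library, so levels of different genes can be set side by side. The deposited FPKM is 1 value per line pooled over 3 libraries. It has no replicate spread, the depth of the libraries is unknown from the table, and no comparison of lines below was tested. TIMP1 had the highest level of the 9 in every line, followed by MMP14. The order of the other 4 differed between lines, with PLAU above TIMP2 in 3 of the lines and TIMP2 (46.0 FPKM) above PLAU (32.6 FPKM) in ERG cells.

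PLAU, which encodes urokinase, was listed at 23.6 FPKM in vector cells, 32.6 in ERG cells, 30.4 in mAKT cells and 26.9 in ERG/mAKT cells. Its levels lay within 1.38-fold of each other, with the highest in ERG cells and the lowest in vector cells. PLAT, the tissue-type activator, was listed at 6.89 FPKM in vector cells, 11.2 in ERG cells, 6.36 in mAKT cells and 7.84 in ERG/mAKT cells. PLAT in ERG cells was thus 1.63-fold above vector cells, a log2 ratio of 0.71, whereas mAKT and vector cells were 1.08-fold apart. PLAUR, the urokinase receptor, was listed at 18.6 FPKM in vector cells, 25.1 in ERG cells, 15.8 in mAKT cells and 16.9 in ERG/mAKT cells. Its level was highest in ERG cells, 1.35-fold above vector cells, and ERG/mAKT cells were within 1.10-fold of vector cells.

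MMP14, the membrane collagenase that activates other MMPs, was listed at 54.7 FPKM in vector cells, 85.2 in ERG cells, 54.9 in mAKT cells and 61.5 in ERG/mAKT cells. ERG cells stood 1.56-fold above vector cells (log2 ratio 0.64), and mAKT and vector cells had almost the same level (log2 ratio 0.01). MMP14 ranked above 90.5% to 93.2% of the genes with any reads in each line. The 3 secreted enzymes were near the floor of the measurement. MMP1, interstitial collagenase, was listed at 0.179, 0.0567, 0.316 and 0.271 FPKM in vector, ERG, mAKT and ERG/mAKT cells. MMP10, stromelysin 2, was listed at 0.172, 0.0385, 0.269 and 0.817 FPKM in the same order, lowest in ERG cells and highest in ERG/mAKT cells. MMP9, gelatinase B, was listed at 0.136, 0.399, 0.168 and 0.135 FPKM, highest in ERG cells. Log2 ratios at such levels rest on few reads: the MMP10 ratio of ERG/mAKT to ERG cells was 4.41 on FPKM and 0.81 on FPKM + 1.

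TIMP1, a secreted inhibitor of most MMPs, was listed at 203 FPKM in vector cells, 206 in ERG cells, 163 in mAKT cells and 102 in ERG/mAKT cells. ERG cells were within 1.02-fold of vector cells, and ERG/mAKT cells were 2.03-fold below ERG cells and 1.60-fold below mAKT cells. TIMP2, an inhibitor that also takes part in the activation of pro-MMP2 by MMP14, was listed at 20.3 FPKM in vector cells, 46.0 in ERG cells, 18.4 in mAKT cells and 22.96 in ERG/mAKT cells. Of the 6 members above 1 FPKM, TIMP2 was furthest from vector in ERG cells, at 2.27-fold (log2 ratio 1.18), and ERG/mAKT cells were back within 1.13-fold of vector cells. The inhibitors thus stood apart in different lines, TIMP2 in ERG cells and TIMP1 in ERG/mAKT cells, with TIMP1 above TIMP2 throughout.

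**Figure D1:**
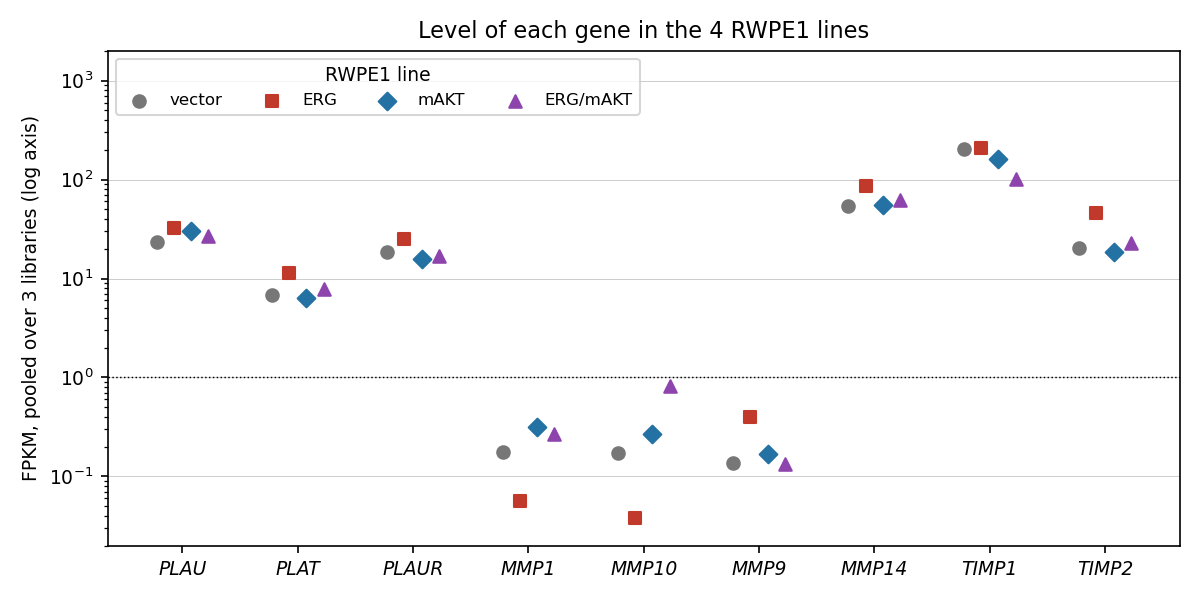
FPKM of the 9 genes on a log axis in the 4 RWPE1 lines, 1 point per line pooled over 3 libraries, with a dotted line at 1 FPKM. The ERG point is the highest for PLAU, PLAT, PLAUR, MMP14, TIMP1 and TIMP2, MMP10 is highest in ERG/mAKT cells at 0.817 FPKM, and TIMP1 is lowest in ERG/mAKT cells at 102 FPKM.

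Lines were compared by a difference of at least 2-fold with at least 1 FPKM in the higher line, a rule that 6 of the 9 genes could meet. In ERG over vector cells TIMP2 alone was at least 2-fold higher and no member was lower, beside 4.78% of all 12268 genes that were 2-fold higher and 1.59% that were 2-fold lower. At 1.5-fold, PLAT, MMP14 and TIMP2 were higher, beside 9.28% of all genes. All 6 members were above their vector level, with a median log2 ratio of 0.55, beside a median of -0.01 and quartiles of -0.22 and 0.22 over all genes. In mAKT over vector cells no member was 2-fold apart, beside 1.04% of all genes higher and 0.996% lower, and the members' median was -0.13. With both inserts against vector, no member was 2-fold higher and TIMP1 was lower, at 2.00-fold and so at the limit itself, beside 3.61% of all genes higher and 1.66% lower.

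Adding mAKT to ERG gave the opposite picture to adding ERG alone. All 6 members were lower in ERG/mAKT than in ERG cells, with a median log2 ratio of -0.55 beside -0.05 over all 12338 genes. TIMP1 (2.03-fold) and TIMP2 (2.00-fold) passed the 2-fold limit downwards, beside 3.57% of all genes, and none passed it upwards, beside 2.65%. Both calls, and that of TIMP1 against vector, ended when ratios were centred on the median of all genes. At 1.5-fold the count stayed at these 2 genes, beside 9.35% of all genes. Between ERG/mAKT and mAKT cells no member was 2-fold apart, beside 2.65% of all genes higher and 0.94% lower, with a median of 0.13. These comparisons share lines (vector and ERG/mAKT in 3 each, ERG and mAKT in 2 each), so they are not separate evidence of one another. A line that is high for a gene in one comparison sets the direction of the next.

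The effect of ERG can be set beside itself with and without mAKT. The log2 ratio was 0.47 without mAKT and -0.18 with it for PLAU, 0.71 and 0.30 for PLAT, and 0.44 and 0.09 for PLAUR. It was 0.64 and 0.16 for MMP14, 0.02 and -0.68 for TIMP1, and 1.18 and 0.32 for TIMP2. For all 6 the signed ratio was lower with mAKT, by between 0.35 (PLAUR) and 0.86 (TIMP2). Lower does not mean smaller in size: TIMP1 went from 0.02 without mAKT to -0.68 with it. Over the 11508 genes at 1 FPKM or more in every line the median of this difference was -0.08, with quartiles of -0.31 and 0.15, so each of the 6 lay below the lower quartile. No difference was tested. The lines with mAKT also differed in AKT1 itself, at 156 FPKM in mAKT cells and 281 in ERG/mAKT cells. In the ERG line keratins also stood apart. KRT5, a basal keratin, was listed at 1170 FPKM in ERG cells and 3126 in vector cells, and KRT8, a luminal keratin, at 1769 and 622 FPKM. The part of this shift in the results above was not tested.

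**Figure D2:**
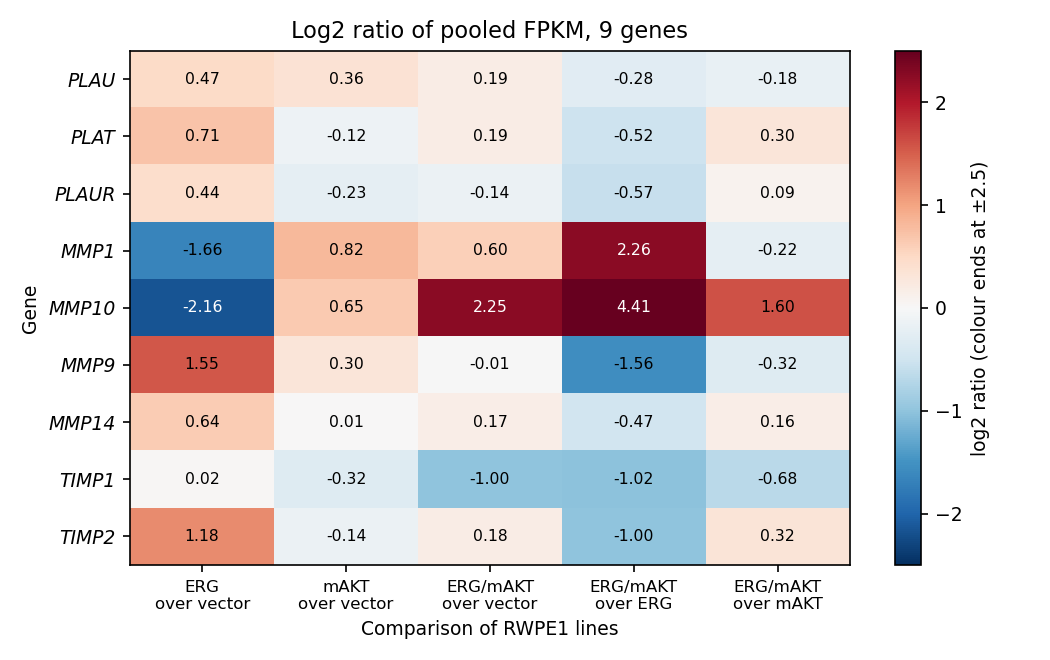
Log2 ratio of pooled FPKM for the 9 genes (rows) in 5 comparisons of lines (columns), written in each cell and coloured from blue (lower) to red (higher), with colours ending at 2.5. The 6 genes above 1 FPKM are all positive in ERG over vector and all negative in ERG/mAKT over ERG, from -0.28 for PLAU to -1.02 for TIMP1, and the strong colours of MMP1, MMP9 and MMP10 belong to levels under 1 FPKM.

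The other genes of these systems were taken from lists of 16 plasminogen genes, 19 MMPs, 5 MMP inhibitors or inducers, 10 membrane serine proteases with their inhibitors, and 16 ADAM and ADAMTS proteases. Of the plasminogen genes, 12 could meet the rule in ERG over vector cells, 2 were at least 2-fold higher (SERPINF2 and F3) and none lower. F3, tissue factor, was listed at 242, 567, 246 and 196 FPKM in vector, ERG, mAKT and ERG/mAKT cells, a log2 ratio of 1.23 for ERG over vector and -1.53 for ERG/mAKT over ERG. Against ERG cells, the ERG/mAKT cells had SERPINE2 and F3 at least 2-fold lower and LRP1, which encodes the receptor that clears serpin and protease complexes, 3.40-fold higher. SERPINE2, protease nexin 1, fell from 30.1 FPKM in ERG cells to 12.4 in ERG/mAKT cells. SERPINB2, which encodes PAI-2, was lowest in mAKT cells, at 3.23 FPKM beside 9.67 in vector cells. The plasminogen receptor genes ANXA2, S100A10 and ENO1 were abundant, with ANXA2 between 2054 and 3377 FPKM, and none of them passed 2-fold. Plasminogen itself (PLG) was at 0.0166 to 0.0352 FPKM. In the remaining comparisons, SERPINB2 alone was 2-fold lower of 11 genes in mAKT over vector and alone higher in ERG/mAKT over mAKT, and SERPINE2 and TFPI2 were lower of 11 in ERG/mAKT over vector.

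Of the 19 other MMPs, 4 could meet the rule in ERG over vector cells, namely MMP2, MMP15, MMP17 and MMP28. MMP17, a membrane-anchored MMP, was 2-fold higher in ERG cells (2.43 FPKM) than in vector cells (0.856 FPKM). MMP28, epilysin, was listed at 15.4, 8.56, 12.0 and 17.4 FPKM in vector, ERG, mAKT and ERG/mAKT cells, the lowest in ERG cells. MMP2, the gelatinase that MMP14 activates, was at 1.59 FPKM in vector cells, 1.39 in ERG cells, 0.483 in mAKT cells and 0.481 in ERG/mAKT cells. It was the one gene of this list 2-fold lower in mAKT over vector (of 4) and in ERG/mAKT over vector (of 3). In ERG/mAKT against ERG cells MMP2 and MMP17 were lower and MMP28 higher, and none of 3 was 2-fold apart from mAKT cells. TIMP3, a matrix-bound inhibitor, ran opposite to TIMP2: it was listed at 5.14 FPKM in vector cells, 1.05 in ERG cells, 8.65 in mAKT cells and 7.67 in ERG/mAKT cells, a log2 ratio of -2.30 for ERG over vector. TIMP3 and BSG were the 2 of 5 inhibitors and inducers that could meet the rule, and TIMP3 passed it in that comparison and in ERG/mAKT over ERG. BSG, an inducer of MMPs, was level at 441 to 489 FPKM.

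Among the ADAM and ADAMTS proteases, 10 of 16 could meet the rule in ERG over vector cells, and ADAM8, ADAM19 and ADAMTS12 were higher while none was lower. ADAM19 was listed at 1.38, 6.99, 0.702 and 1.15 FPKM in vector, ERG, mAKT and ERG/mAKT cells, and ADAMTS12 at 1.04, 4.35, 0.275 and 0.435 FPKM. Both were highest in ERG cells. Against ERG cells, 4 of 9 were 2-fold lower in ERG/mAKT cells (ADAM19, ADAMTS1, ADAMTS6 and ADAMTS12) and none higher. Against vector cells, ADAMTS12 and ADAMTS15 were lower in mAKT cells, these and ADAMTS1 were lower in ERG/mAKT cells, and none of 7 was 2-fold apart between ERG/mAKT and mAKT cells. Of the membrane serine proteases, 4 of 10 could meet the rule in ERG over vector cells and none was 2-fold apart. TMPRSS4, a serine protease of the membrane, was listed at 0.444, 0.182, 1.36 and 2.56 FPKM in vector, ERG, mAKT and ERG/mAKT cells. It was 2-fold higher in mAKT over vector, in ERG/mAKT over vector and in ERG/mAKT over ERG. TMPRSS11E, with 1.13 FPKM in ERG/mAKT cells, was higher there than in vector cells (0.334 FPKM) and mAKT cells (0.462 FPKM). ST14, which encodes the urokinase-activating protease matriptase, was between 41.4 and 56.9 FPKM. These lists were chosen with earlier results known, and their counts are descriptions beside the background percentages above.

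**Figure D3:**
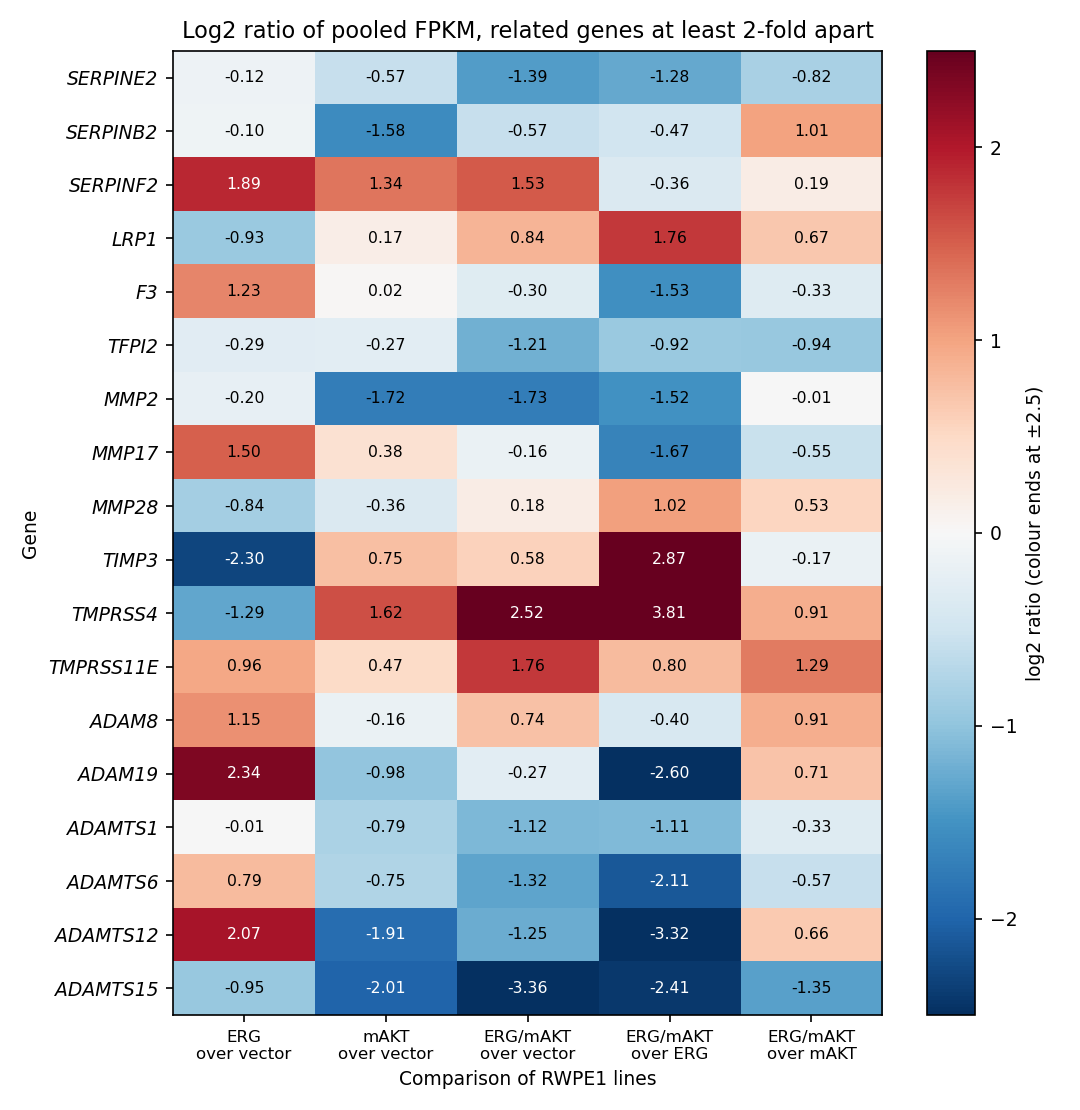
Log2 ratio of pooled FPKM for the 18 genes of the related lists reported here with at least 1 FPKM and a 2-fold difference in 1 or more of the 5 comparisons, coloured as in the plot of the 9 genes. F3, MMP17, ADAM19 and ADAMTS12 are above 1 in ERG over vector and below -1 in ERG/mAKT over ERG, and TIMP3 is reversed at -2.30 and 2.87.

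Genes whose 3 log2 ratios to vector were closest to those of TIMP2, TIMP1 and PLAT, which had the widest range of the 6 members above 1 FPKM, were sought among 11508 genes at 1 FPKM or more in every line. Closeness was the greatest of the 3 absolute differences. For TIMP2 these were SNORA34 (0.065), ANXA3 (0.079) and CDK18 (0.137). For TIMP1 they were HS3ST3A1 (0.099), FOXD1 (0.109) and LOC100506844 (0.146), and for PLAT they were MIRLET7BHG (0.035), HSBP1L1 (0.051) and EXT1 (0.057). ANXA3 was listed at 79.8, 172, 75.3 and 94.3 FPKM in vector, ERG, mAKT and ERG/mAKT cells. With 4 pooled values behind each pattern, closeness describes these lines only.

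ERG peaks of ERG/mAKT cells lay within 20 kb of 6 of the 9 genes (PLAU, MMP1, MMP10, MMP9, MMP14 and TIMP2), beside 28.9% of 20134 genes with a position and 32.4% of those at 1 FPKM or more in any line. There were 7 such peaks, since MMP1 and MMP10 share 1. PLAT, PLAUR and TIMP1 had none. The PLAU distal peak had the highest fold enrichment of the 7, at 5.29 over the local background with a −log10 q of 2.09, and was the one peak of the 7 with a q under 0.01. The MMP14 peak followed at 4.94 (−log10 q 1.51) and the MMP10 upstream peak at 4.63 (1.23). The MMP9 peak, 15.8 kb upstream of the gene, was at 3.70, both TIMP2 peaks were at 3.53, and the peak downstream of MMP10 was at 2.94. The pileup at these peaks was 4 to 8 reads, so each is a thin peak. The list as a whole held 9113 peaks with a median fold of 3.53.

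Of the 7 peaks, 4 overlapped an ATAC peak in each of the 3 lines (PLAU distal, MMP10 upstream, MMP14 and TIMP2 upstream), beside 18.1% to 20.8% of the whole ERG list. The MMP14 peak was the one that also overlapped ERK2 peaks of both vector and ERG cells, beside 2.91% of the ERG list that overlapped the ERK2 list of ERG cells. It lay 2.82 kb inside the gene, in an intron. The PLAU distal and MMP10 upstream peaks overlapped an ERK2 peak of vector cells, so 3 of the 7 did, beside 3.56% of the ERG list. The shares of the ERG list are over all its peaks, at any distance from a gene. They are not matched to the 7 peaks, which were chosen within 20 kb of a gene. The open region of ERG cells that holds the PLAU distal peak also overlapped an ERK2 peak of ERG cells. Next to the MMP10 upstream peak lay an ERK2 peak of ERG cells at chr11:102654945-102655147, with no base in common with it. In VCaP cells ERG peaks lay within 20 kb of PLAT alone, beside 19.6% of all genes and 23.6% of those at 1 FPKM or more. None of the 7 peaks of ERG/mAKT cells overlapped a VCaP peak, beside 1.25% of the whole list. The list of RWPE1 cells with ERG alone was not analysed here, so binding with and without mAKT was not compared.

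ERK2 peaks of ERG cells lay within 20 kb of 5 genes (PLAU, MMP1, MMP10, MMP14 and TIMP2), beside 22.8% of all genes and 32.0% of those at 1 FPKM or more. MMP1 and MMP10 were counted through the same peak, at chr11:102654945-102655147. ERK2 peaks of vector cells lay near 8 genes, all but PLAT, beside 68.1% of all genes and 77.0% of those at 1 FPKM or more. MMP1 and MMP10 share peaks in this list as well. The vector list held 41276 peaks and the ERG list 5721, so their counts are not on 1 scale. With the vector list cut to 5721 peaks by p-value, 3 of the 9 genes had a peak, beside 22.2% of all genes. Of the 6 ERK2 peaks of ERG cells near members, 5 overlapped ATAC peaks of ERG cells, beside 41.1% of the list. This share too is over peaks at any distance from a gene. The strongest of the 6 was the PLAU proximal peak, with a fold enrichment of 4.20 and a pileup of 7.09. Both MMP14 peaks and the TIMP2 intron peak followed at 4.09. None had a q under 0.01, and the highest −log10 q was 0.630. In vector cells the peak upstream of MMP9 was the strongest, at 4.83 (−log10 q 1.88), higher than 98.4% of its list.

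In windows of 100 bases on either side of the summit, GGAA was present at 5 of the 7 ERG peaks near members and in 87.5% of all 9113 ERG windows. Neither AGGAAGTG nor CGGAAGTG was found in the 7, beside 3.77% of all windows, and GGAAGTGA was found in none, beside 2.33%. An AP-1 word was found in 1 of the 7 (TIMP2 upstream, outside the called bounds of the peak), beside 8.45%. All 6 ERK2 windows of ERG cells held GGAA, beside 88.4%, 1 held AGGAAGTG or CGGAAGTG (MMP14), beside 2.71%, and 1 held an AP-1 word (PLAU proximal), beside 7.74%. Of the 16 ERK2 windows of vector cells, 15 held GGAA, beside 84.8%, and none held a longer ETS word. An AP-1 word was in 1 of the 16 (MMP9 upstream, outside the called bounds of the peak), beside 3.83%. GGAA is within the longer ETS words and is short enough to occur in most windows, so its presence describes the sequence and not a bound site.

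ATAC peaks lay within 20 kb of all 9 genes in each line, beside 90.0% of all genes in ERG cells, 89.0% in mAKT cells and 84.5% in ERG/mAKT cells. Of the genes at 1 FPKM or more in any line, 99.6%, 99.6% and 99.0% had such a peak. ATAC peaks near the 9 genes numbered 46, 39 and 32 in these lines, in the order of the lengths of the lists (63354, 57999 and 42081 peaks). Of the 46 peaks of ERG cells, 28 overlapped a peak in both of the other lists and 10 were in that list alone, which is 21.7% beside 24.1% of the whole list. With all lists cut to 42081 peaks by p-value, 7 of 33 were in the ERG list alone, which is 21.2% beside 17.9% of that list. Of those 10, MMP14 had 3, PLAT and TIMP2 had 2 each, and PLAU, MMP1 and TIMP1 had 1 each. In ERG/mAKT cells 2 of 32 peaks were in that list alone, which is 6.25% beside 5.81% of the whole list, and with lists of equal length 9.38% beside 16.3%. An ATAC list of vector cells was not used here, so none of these can be called gained.

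At MMP10 the start of the gene was open, that is, under an ATAC peak, in ERG/mAKT cells alone, the line in which its level was highest. This peak had a fold enrichment of 2.91 and a −log10 q of 6.26, in the lowest 2.66% of its list by fold, and it holds the sequence before the MMP10 start given above. The site 3.28 kb upstream of MMP10, which holds its ERG peak, was open in all 3 lists, with a fold of 9.53 in ERG cells, 8.77 in mAKT cells and 7.01 in ERG/mAKT cells. The start of MMP1 was also open in all 3, at 7.84, 7.31 and 6.85. The MMP14 intron region that holds the ERG and ERK2 peaks was open at 4.61, 3.92 and 5.09 in ERG, mAKT and ERG/mAKT cells, 1.37 to 1.74 kb wide. The TIMP1 start was open at 10.7, 7.98 and 8.51. The MMP9 upstream site, at 12.3, 11.5 and 11.8, was open although MMP9 was below 0.4 FPKM in every line.

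The PLAU distal site that holds its ERG peak was open in all 3 lines, at 6.73 in ERG cells, 5.79 in mAKT cells and 5.72 in ERG/mAKT cells, and the proximal site of its ERK2 peak at 7.14, 5.46 and 4.17. The first annotated base of PLAU lay under a weak peak at 2.91 in ERG cells and 4.03 in ERG/mAKT cells, with none in mAKT cells. A weak peak 2.0 kb into the gene, touching an exon, went the other way between the mAKT lines. It was at 2.27 in ERG cells and 2.79 in mAKT cells, with none in ERG/mAKT cells. The table's locus for PLAU begins at base 75669727, beside 75668935 for the span used here, so the start in use is not settled. PLAUR, which had no ERG peak, carried an open region 1.77 to 1.90 kb into the gene with nearly the same fold in all 3 lines, at 7.73, 7.38 and 7.57. A site 5.04 kb upstream of PLAUR was at 9.08, 9.15 and 7.88. For TIMP2 the upstream site of its ERG peak was at 8.28 in ERG cells, 4.78 in mAKT cells and 6.04 in ERG/mAKT cells, and the intron site of its ERK2 peak at 7.90, 7.69 and 5.56. ERG cells also had 2 sites in TIMP2 that the other lists lacked, of which the one 48.3 kb into the gene was at 9.02. At the distal PLAU site and the upstream TIMP2 site, as at the start of TIMP1, the highest fold was that of ERG cells, whose whole list also had the highest median fold, at 6.41 beside 5.26 in mAKT cells and 5.49 in ERG/mAKT cells.

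PLAT showed ATAC peaks of ERG cells that the other lists lacked. One of 448 bases, at chr8:42043007-42043454 in the gene and touching an exon, had a fold enrichment of 8.48 and a −log10 q of 28.8. The other, at chr8:42029215-42029556 downstream of the gene, had 4.69 and 6.20. Both overlapped the VCaP ERG peaks near PLAT, at chr8:42043038-42043556 (fold 5.03, −log10 q 3.50) and chr8:42029219-42029454 (3.84 and 1.11), and 24.2% of the VCaP list overlapped an ATAC peak of ERG cells. The downstream peak was nearer to AP3M2 (0.028 kb) than to PLAT. Farther inside PLAT, overlapping ATAC peaks were at 12.1 in ERG cells (pileup 155), 3.52 in mAKT cells (12.3) and 5.48 in ERG/mAKT cells (23.8). Their bounds differed, at chr8:42054689-42055127 in ERG cells, chr8:42053906-42054879 in mAKT cells and chr8:42053872-42054996 in ERG/mAKT cells. These values are thus not for the same bases. ERG cells were also the line with the highest PLAT level. With lists cut to equal length, 1 PLAT peak was in the ERG list alone. The ERG/mAKT list also held 1 PLAT peak of its own, both as deposited and at equal length. Each list rests on 1 library, read depth was recorded for the ATAC list of mAKT cells alone, and the differences were not tested.

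**Figure D4:**
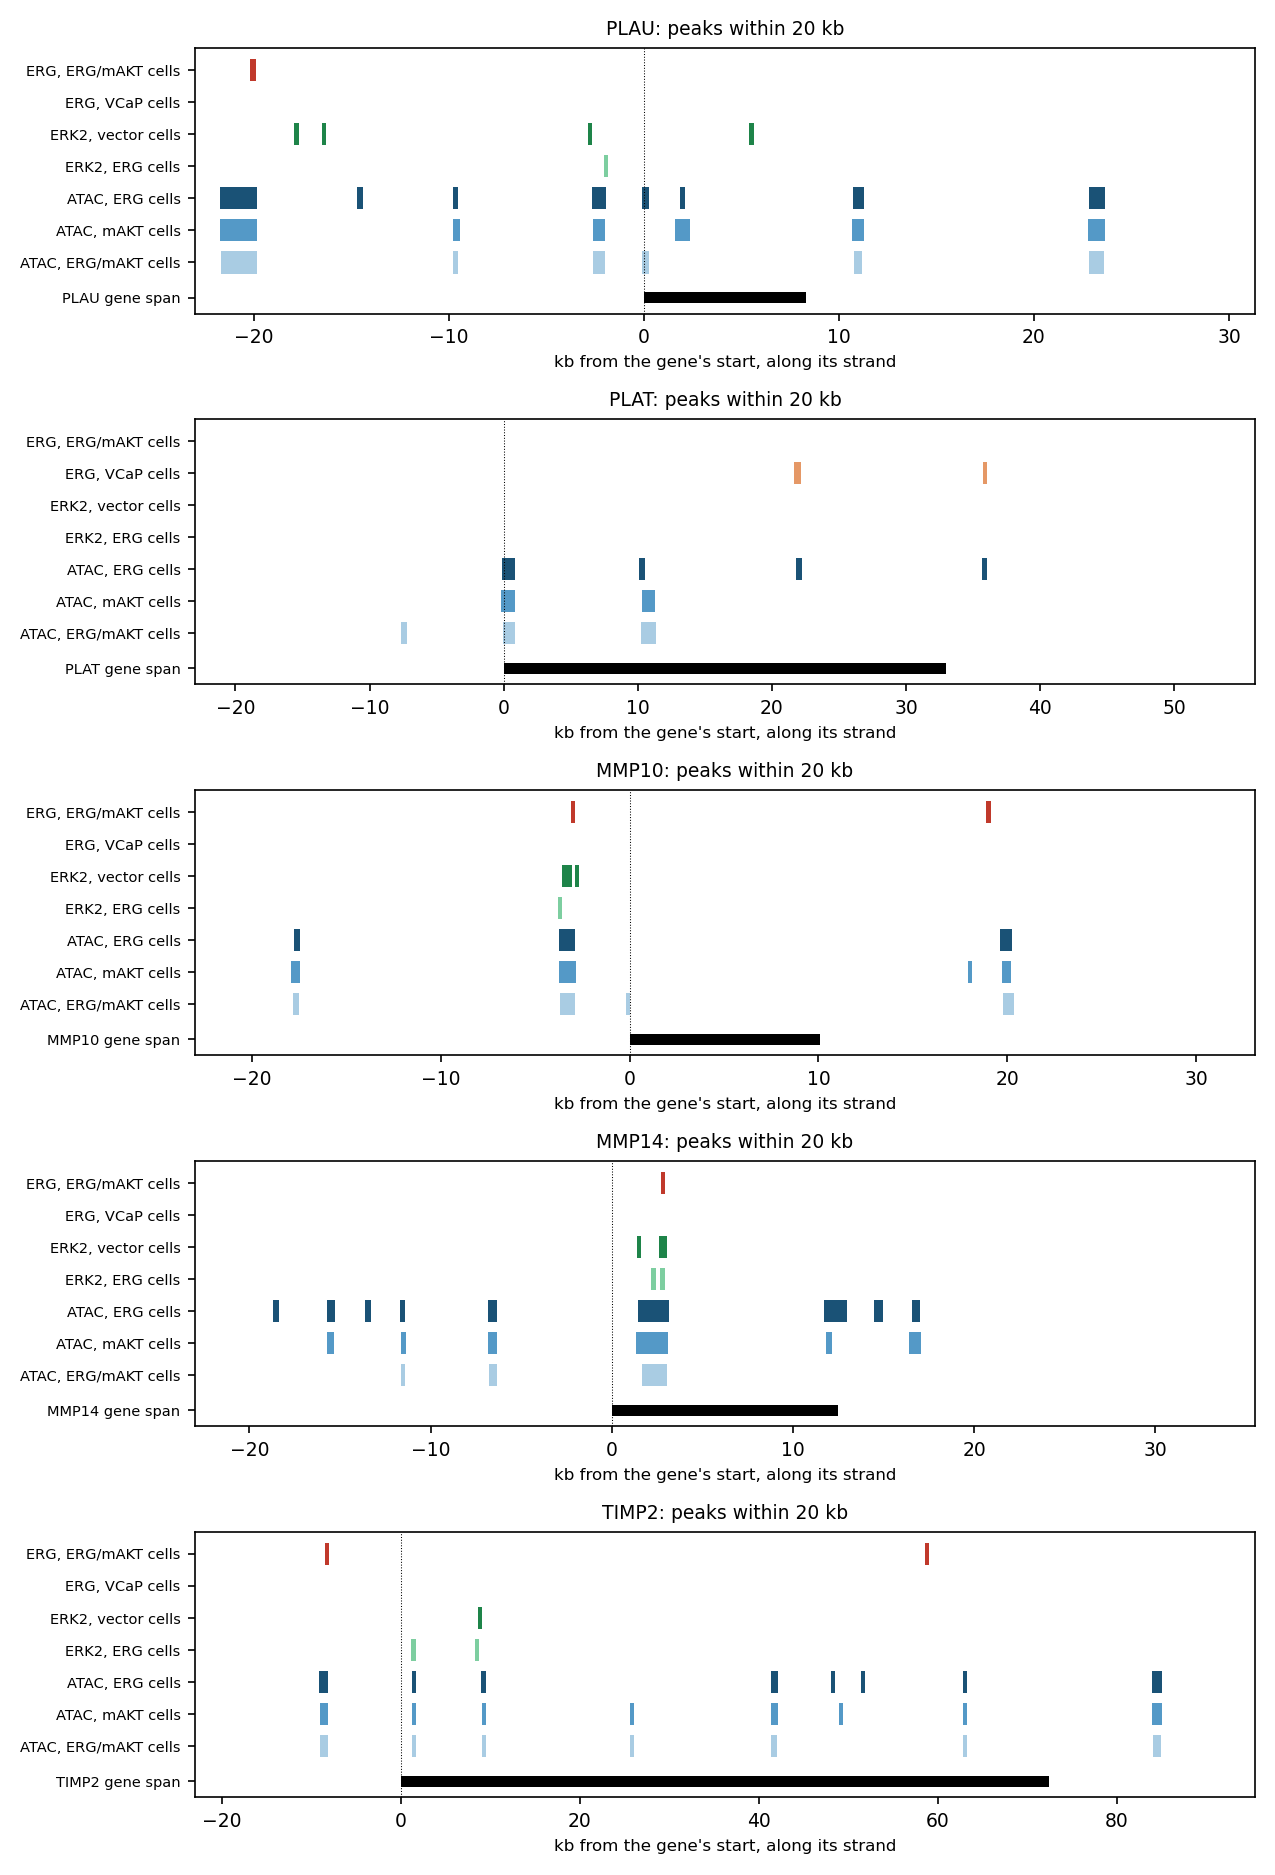
Peaks within 20 kb of PLAU, PLAT, MMP10, MMP14 and TIMP2, 1 row per peak list, against the distance in kb from the gene's start along its strand, with the gene as a black bar and narrow peaks widened to be visible. The MMP14 intron carries ERG, ERK2 and ATAC peaks 2.82 kb into the gene or close to it, the VCaP ERG peaks of PLAT sit over ATAC peaks of ERG cells, and the MMP10 start has a peak in ERG/mAKT cells alone.

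H3K27me3, the mark of Polycomb repression, was called within 20 kb of 8 genes in vector cells, 5 in ERG cells and 4 in S96E cells, beside 96.8%, 71.7% and 76.5% of all genes. Of the genes at 1 FPKM or more in any line, the shares were 96.1%, 61.0% and 67.8%. The 3 H3K27me3 lists hold 492265, 228233 and 252784 regions, most of them weak. PLAT had none in any list. Downstream of PLAUR, 6.57 kb away and in CADM4, a region of S96E cells had a fold of 4.18 and a −log10 q of 4.60. A region of ERG cells inside it had a fold of 2.08. MMP9 stood out among the 9 by the length covered in the gene. Of the 7654 bases of the MMP9 gene, the regions covered 3782 in vector cells, 2830 in ERG cells and 6477 in S96E cells. In vector and ERG cells the regions in the gene had folds of at most 2.02 and 2.38. In S96E cells 1 region of 7506 bases, at chr20:44635177-44642682, covered the whole 1 kb on either side of the MMP9 start with a fold of 3.76 and a −log10 q of 4.26. A second S96E region of 16721 bases began downstream of the gene and covered part of SLC12A5, at 4.74 and 8.79. Regions in SLC12A5 were also called in ERG cells, at chr20:44658259-44663184 with a fold of 4.02 and a −log10 q of 1.67, and in vector cells, at chr20:44658634-44661956 with 3.13 and 0.440. The MMP9 level in S96E cells was not analysed here, and the S96E library was the deepest of the 3, at 26454542 reads beside 19444504 for vector and 16513053 for ERG cells. The part of depth in this difference was not tested.

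**Figure D5:**
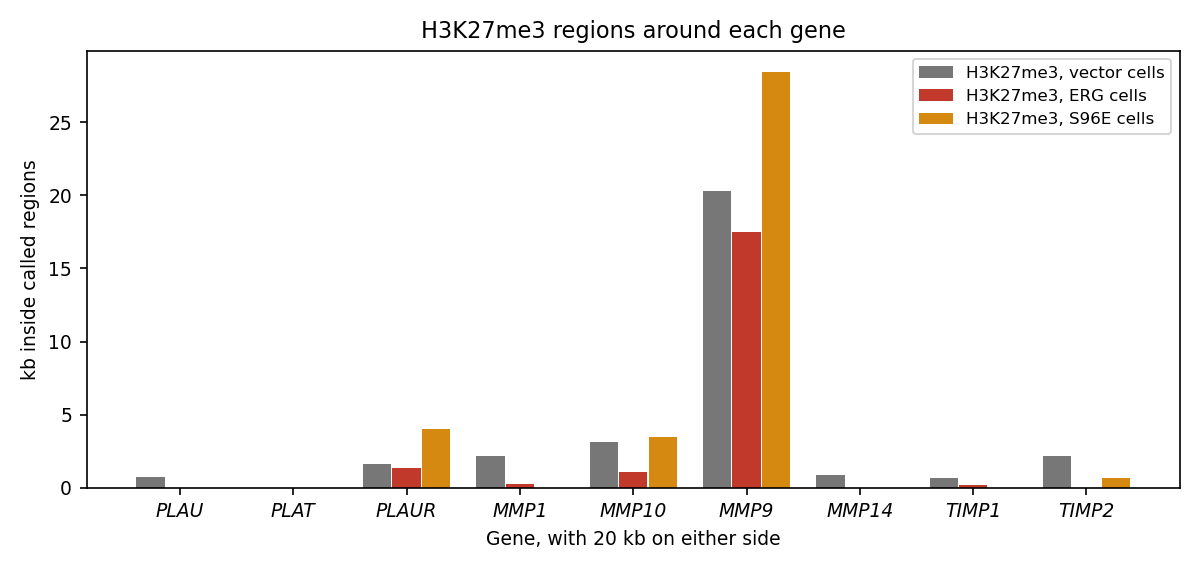
Length in kb inside called H3K27me3 regions over each gene with 20 kb on either side, for vector, ERG and S96E cells, 1 library each. MMP9 has the tallest bars in each list, with 20266 bases in vector, 17481 in ERG and 28448 in S96E cells, and PLAT has none.

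The labels were checked on the inserted genes. ERG was listed at 0.264, 358, 0.435 and 328 FPKM in vector, ERG, mAKT and ERG/mAKT cells, and AKT1 at 58.7, 64.2, 156 and 281 FPKM, which follow the labels. AKT1 was higher in ERG/mAKT than in mAKT cells, so the comparison of those lines differs in AKT1 as well as in ERG. The part of AKT1 level in the results was not tested. All 8 basal and epithelial markers were at 21.3 FPKM or more in every line. The 7 fibroblast markers summed to between 1.82 and 2.19 FPKM, nearly all COL1A1, with COL3A1 and PDGFRA at 0, and the 5 endothelial markers summed to at most 0.326 FPKM. The 5 leukocyte markers summed to between 25.8 and 30.0 FPKM, nearly all CD68, with PTPRC at or under 0.00391. The ChIP libraries with a recorded depth had 8393459 to 26454542 reads. TIMP1 lies in an intron of SYN1 on the other strand, and MMP1, MMP10, PLAU and MMP9 overlap WTAPP1, C10orf55 or SLC12A5-AS1 on the other strand. TIMP2 overlaps CEP295NL on its own strand and unnamed genes on the other strand. Whether the counting used strand is not given in the sources used here, so reads of such pairs may not be told apart, and the table's locus for MMP1 and for TIMP1 was wider than the gene. The table's locus for PLAU also ran past the end of the gene, to base 75682535 beside 75677254.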

How the data were processed

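RNA from 4 RWPE1 lines in triplicate was aligned by the authors with TopHat2 and summarised with Cuffdiff. The deposited FPKM is 1 value per line, pooled over 3 libraries, for each of 6 pairs of lines. The authors' own columns of fold change, test statistic, p-value, q-value and significance were not used, and 0 columns of single samples were present. ChIP-seq (single end, pooled from 3 ChIP experiments) and ATAC-seq reads were aligned by the authors to hg19 with Bowtie2, and duplicates were removed with Picard. The authors called peaks with MACS2 (2.1.2 or 2.2.7.1 per the file headers), and the deposited lists give the pileup signal, the fold enrichment ratio and −log10 p and q. H3K27me3 and ATAC regions were called as broad. MACS thresholds differ between lists, and whether ATAC reads were shifted for the transposase is not given in the sources used here. Of the peak lists, 10 were used. Another 2, attached to the VCaP input and the LY294002-treated VCaP sample, were not used because their content goes against their labels, and the vector ATAC list is not used here.

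Symbols at more than 1 locus (4 rows) were dropped from 26255 rows. Ratios are plain FPKM ratios, and a call needed 1 FPKM in the higher line and 2-fold. Gene spans are from GENCODE 44 on GRCh37. No peak extended past a chromosome end of that build. A gene had a peak within 20 kb when the span and the nearest base of the peak were at most that far apart, and overlap means 1 base. No comparison was tested, since FPKM is pooled and each peak list is 1 library. The named genes are all 9 members, list genes at 1 FPKM and 2-fold in at least 1 comparison, and the 3 genes nearest in pattern to the 3 members of widest range among those at 1 FPKM or more in every line. PLG, ANXA2, S100A10, ENO1, MMP15, BSG, ST14, KRT5 and KRT8 lie outside this rule and were named after their values were seen. A gene of the plasminogen list is not reported here and is left out of its counts. The members and lists were chosen with earlier results of these data known. Distance and overlap code was tested on simulated data. Python 3.11.15, pandas 2.3.3 and pysam 0.24.0 were used.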

Additional observations from a re-analysis of the deposited data

Results flagged for a closer look

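The log2 ratio of ERG changed sign when mAKT was present for 4 of the 9 genes. With mAKT less without it, the difference was -0.64 for PLAU, -0.70 for TIMP1, -1.87 for MMP9 and 3.76 for MMP10. Each rests on 4 pooled values and was not tested. Of the 11508 genes at 1 FPKM or more in every line, 43.7% also had opposite signs, and MMP9 and MMP10 were below 1 FPKM throughout.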

How the results depend on the processing

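No paired analysis was possible because the deposited FPKM is pooled over the libraries of each line, and no replicate could be left out for the same reason. The number of members 2-fold apart in ERG over vector was 1, and became 3 at 1.5-fold and 4 with no FPKM filter. In ERG/mAKT over vector it was 1 (TIMP1), and became 2 with no filter and 0 after median centring or with a pseudocount of 1. In ERG/mAKT over ERG it was 2, and became 5 with no filter, 0 after median centring and 1 with a pseudocount of 1. In ERG/mAKT over mAKT it was 0, and became 1 at 1.5-fold or with no filter. The TIMP calls in ERG/mAKT cells thus lie close to the limit. No called log2 ratio changed sign, and of 135 recomputed log2 ratios 27 moved by over 0.1.

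At a q of at most 0.01, the ERG list of ERG/mAKT cells left 1 member and 1 peak, the VCaP list left 1 peak, both ERK2 lists left 0 members and 0 peaks, the H3K27me3 lists of vector and ERG cells left 0 and 0, and the S96E list left 2 members and 3 peaks. Within 50 kb, 3 members had a VCaP peak, and within 10 kb, 3 had an H3K27me3 region of ERG cells. Members with an ERG peak of ERG/mAKT cells numbered 4 within 10 kb and 6 within 50 kb. With the table's locus in place of the gene span, 5 members had one within 20 kb. With lists of equal length, chosen after seeing the data, the ERK2 list of vector cells left 3 members and 3 peaks. When an overlap had to cover 50% of the peak, 1 ERG peak overlapped the ERK2 list of vector cells in place of 3, 0 ERK2 peaks of vector cells overlapped the ERG list of ERG/mAKT cells in place of 2, 1 ERK2 peak overlapped in either direction between the ERK2 lists in place of 2, and 3 ERK2 peaks of ERG cells overlapped the ATAC list of ERG/mAKT cells in place of 5. The cause was not tested. RNA depth is unknown, and peaks of 4 to 8 reads limit the ERG comparison.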
